A study of Mus musculus with 16 samples.

Results

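The open chromatin of unperturbed mouse neural stem and progenitor cells was described from 4 wild-type C57BL/6 embryos, out of 16 samples in the whole study. Each library came from 1 embryo at E12.5, mid-gestation. The cells were taken from the dorsal telencephalon, the part of the embryonic forebrain that forms the cerebral cortex, and were grown in neurosphere medium, so they describe a culture and not the intact tissue. These 4 embryos were Kat6b+/+ and carried no transgene. They are the C57BL/6 controls of a study of the histone acetyltransferase KAT6B, whose other 12 samples are not used here. Each library was made by ATAC-seq from 50000 mouse cells, to which 50000 S2 cells of Drosophila melanogaster were added as a reference, and amplified for 10 cycles of PCR. Reads from the fly cells were not analysed here. The question was which promoters, gene ends and enhancer regions were most and least accessible at rest, on autosomes only.

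ATAC-seq uses the Tn5 transposase, which inserts sequencing adapters where DNA is not wrapped on nucleosomes, so more reads over a region mean more accessible DNA. Promoters of active genes usually have a nucleosome-depleted stretch just upstream of the start site, and promoters rich in CpG dinucleotides, known as CpG islands, are often kept open in many cell types. Gene ends usually carry no such stretch and give a local reference. Enhancers are distal elements that often carry the histone marks H3K4me1 and H3K27ac. Dorsal telencephalic progenitors are known for the transcription factors SOX2, PAX6 and EMX2 and for the Notch effector HES5.

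The promoter sequences below show the range that the measurements covered. They are the 250 bases upstream of the start, from RefSeq on build GRCm38.p6, read 5′ to 3′ on the gene's strand with each CpG in capitals. Sp4 and Rap2a stand for the most open promoters, Sox2, Hes5, Emx2 and Pax6 for the progenitor markers, Alb for a promoter near the level of gene ends, and Olfr845 for the lowest levels. The counted promoter windows were longer than these stretches and their positions were not used here, so the sequences describe the gene's start and not the counted window.
Sp4, chr12:118301441-118301690, minus strand: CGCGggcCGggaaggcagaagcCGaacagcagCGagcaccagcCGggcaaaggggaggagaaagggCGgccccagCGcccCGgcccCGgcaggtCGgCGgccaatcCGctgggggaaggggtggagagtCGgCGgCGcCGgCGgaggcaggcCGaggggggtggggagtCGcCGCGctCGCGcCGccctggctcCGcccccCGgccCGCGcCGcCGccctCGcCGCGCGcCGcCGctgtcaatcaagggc
Rap2a, chr14:120478211-120478460, plus strand: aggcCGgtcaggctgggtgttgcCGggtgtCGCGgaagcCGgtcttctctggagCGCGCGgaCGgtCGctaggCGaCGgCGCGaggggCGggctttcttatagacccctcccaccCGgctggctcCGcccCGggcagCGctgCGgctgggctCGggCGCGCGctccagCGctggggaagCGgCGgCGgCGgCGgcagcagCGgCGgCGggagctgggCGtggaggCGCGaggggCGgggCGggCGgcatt
Sox2, chr3:34649745-34649994, plus strand: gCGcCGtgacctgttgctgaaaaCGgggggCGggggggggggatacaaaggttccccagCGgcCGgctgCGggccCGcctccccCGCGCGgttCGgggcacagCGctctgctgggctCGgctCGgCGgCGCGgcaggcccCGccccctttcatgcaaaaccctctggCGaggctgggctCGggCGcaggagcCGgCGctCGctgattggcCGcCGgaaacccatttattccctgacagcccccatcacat
Hes5, chr4:154960673-154960922, plus strand: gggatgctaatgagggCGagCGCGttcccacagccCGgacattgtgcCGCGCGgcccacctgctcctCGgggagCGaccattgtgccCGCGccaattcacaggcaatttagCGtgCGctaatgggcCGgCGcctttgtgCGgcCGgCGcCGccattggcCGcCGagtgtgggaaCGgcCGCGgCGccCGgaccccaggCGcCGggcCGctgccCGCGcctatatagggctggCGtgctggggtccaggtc
Emx2, chr19:59458440-59458689, plus strand: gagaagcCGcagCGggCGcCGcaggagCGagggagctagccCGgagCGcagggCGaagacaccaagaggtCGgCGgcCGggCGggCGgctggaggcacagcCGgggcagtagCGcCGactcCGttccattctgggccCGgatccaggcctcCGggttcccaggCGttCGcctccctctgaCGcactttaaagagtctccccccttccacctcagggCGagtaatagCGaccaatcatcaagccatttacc
Pax6, chr2:105668646-105668895, plus strand: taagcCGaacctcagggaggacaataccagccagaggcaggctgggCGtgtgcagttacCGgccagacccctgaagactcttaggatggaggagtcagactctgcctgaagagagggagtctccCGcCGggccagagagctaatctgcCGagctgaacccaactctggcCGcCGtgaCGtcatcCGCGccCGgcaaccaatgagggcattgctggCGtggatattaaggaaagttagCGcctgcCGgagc
Alb, chr5:90460620-90460869, plus strand: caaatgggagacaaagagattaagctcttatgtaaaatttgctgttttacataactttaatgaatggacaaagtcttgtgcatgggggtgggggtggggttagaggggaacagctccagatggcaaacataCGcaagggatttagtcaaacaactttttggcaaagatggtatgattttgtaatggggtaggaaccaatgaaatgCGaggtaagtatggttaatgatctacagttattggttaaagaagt
Olfr845, chr9:19338209-19338458, plus strand: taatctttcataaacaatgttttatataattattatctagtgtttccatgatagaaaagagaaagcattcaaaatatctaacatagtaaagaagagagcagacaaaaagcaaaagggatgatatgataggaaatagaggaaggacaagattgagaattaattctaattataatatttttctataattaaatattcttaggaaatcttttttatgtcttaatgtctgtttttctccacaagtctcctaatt
The stretch upstream of Sp4 holds 37 CpG and that of Rap2a 39. Those of Sox2, Hes5, Emx2 and Pax6 hold 27, 32, 24 and 15. Alb, which encodes serum albumin and is a liver gene, has 2 CpG, and Olfr845, an olfactory receptor gene, has 0.

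The data were read counts over 3 classes of region. After sex chromosomes and 22 gene IDs without a known chromosome were left out, there were 19263 promoter windows of at most 2001 bp, 19263 gene-end windows of 1001 bp for the same genes, and 20550 regions marked by H3K4me1 and H3K27ac. The autosomal counts of the 3 classes together came to 4271918, 3837885, 3600377 and 4633967 in libraries 1 to 4. Levels are given as CPKM, the counts per kb of region per 1000000 of these counts. The median promoter held 77 to 99 counts in a library, the median enhancer region 30 to 39 and the median gene end 8 to 11, so single gene ends are the least precise values. Nothing in the labels says that the 4 cultures were prepared on different days. Per-gene p-values measure how the ratio of promoter to gene end varied over these 4 libraries, with that spread estimated partly from all genes. They do not measure differences in level between embryos.

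Promoters were the most open class, enhancer regions came next and gene ends were lowest. The median promoter level was 10.76, 10.81, 10.69 and 10.68 CPKM in libraries 1 to 4. The median enhancer level was 6.33, 6.28, 6.47 and 6.73, and the median gene-end level was 2.10, 2.08, 2.22 and 2.37. The 3 ranges did not overlap. Within a library the promoter median was 4.90-fold above the gene-end median (log2 ratio 2.29 ± 0.094, SD, n = 4). The enhancer median was 2.94-fold above it (log2 ratio 1.56 ± 0.042, SD, n = 4), and the promoter median was 1.66-fold above the enhancer median (log2 ratio 0.73 ± 0.052, SD, n = 4). Each ratio was above 0 in 4 of 4 libraries, and the exact paired permutation test over libraries gave a two-sided p = 0.13, the smallest that 4 pairs allow. Library 4 had the highest gene-end median and the lowest promoter to gene-end ratio, at 2.17 on the log2 scale. Promoters took 57.5% to 58.8% of the counts, enhancer regions 35.1% to 35.8% and gene ends 6.09% to 6.88%.

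**Figure D1:**
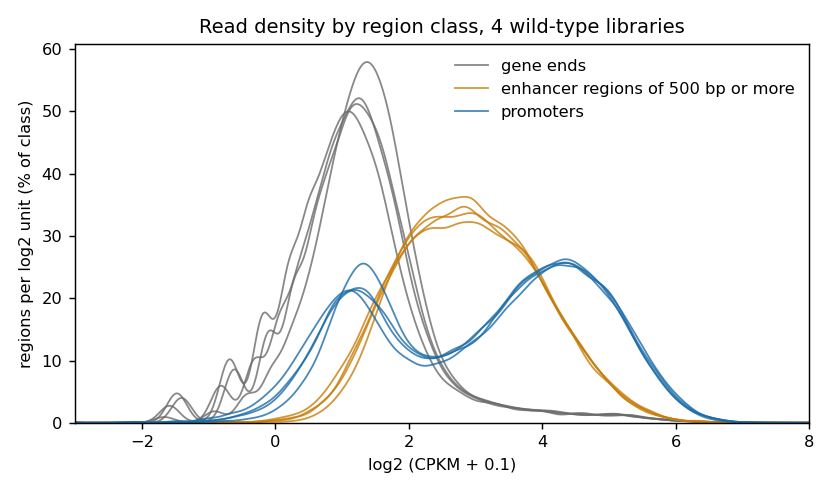
Distribution of read density over promoters, gene ends and enhancer regions of at least 500 bp, with 1 line for each of the 4 libraries. The x axis is log2 of CPKM with 0.1 added, and the y axis is the percentage of a class per log2 unit, smoothed. Promoters form 2 groups in every library, and the lower one lies over the gene ends.

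Promoters fell into 2 groups. The level most often seen in the lower group was 2.12 CPKM, and in the upper group 19.8. The lowest point between them was at 4.78, a boundary chosen after the values were seen. Above it lay 12527 of the 19263 promoters (65.0%) and below it 6736. Within 1.2-fold of the boundary lay 956 promoters. In single libraries the lowest point was at 4.78 to 5.18 and 64.0% to 64.7% of promoters lay above it. The lower group was at the level of gene ends, whose median of library means was 2.21. A level of 2 times that was passed by 66.1% of promoters, 69.2% of enhancer regions and 10.3% of gene ends. None of the 19263 promoters had 0 counts in all 4 libraries, and levels ran from 0.346 at Vmn2r129 to 143.5 at Sp4. The most open 10% of promoters, from 35.5 upwards, held 31.7% to 32.6% of promoter counts in each library, and the least open 10%, up to 1.78, held 0.793% to 1.08%.

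Of the 4 progenitor markers, 3 had promoters far up in the upper group. An open promoter cannot by itself identify these cells. The oligodendrocyte factor gene Olig2 was at 52.0, and 19 of 20 general housekeeping promoters also lay above the boundary. The promoter of Sox2, a factor that maintains neural progenitors, was at 44.2, 54.0, 51.8 and 49.5 CPKM, rank 661 of 19263. Hes5 was at 31.7, 32.4, 30.8 and 31.2, rank 2566. Emx2, a patterning factor of the dorsal telencephalon, was at 29.0, 29.6, 35.0 and 28.3, rank 2770. In all 4 libraries these 3 promoters were above their gene ends, which had mean levels of 7.31, 13.0 and 7.77. The promoter window of Pax6, a master regulator of cortical progenitors, was at 5.15, 5.73, 5.69 and 5.28, rank 12185 and close to the boundary. Its gene end was at 2.57, 3.90, 3.33 and 2.37, below the promoter in every library. RefSeq lists 2 start windows for Pax6, and the deposited table holds 1 window for each gene. Among 24 genes of neural stem and progenitor cells, 23 promoters lay above the boundary and 9 in the most open 10%, with a median of 31.4 against 10.8 for all promoters. The highest were Hes1, a Notch effector, at 65.0 ± 3.3, and Vim, the intermediate filament vimentin, at 62.9 ± 1.3 (SD, n = 4). The exception below the boundary was Nr2f2, a nuclear receptor, at 3.92 ± 1.1. Whether its counted window covers the start used in these cells was not tested.

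The 20 most open promoters spanned 96.6 to 143.5 CPKM and were at or above 92.0 in every library. The next in order, Hbp1, was at 96.0. Sp4 and Sp1 encode related zinc finger factors that bind GC boxes. Sp4 was at 149.0, 140.0, 152.5 and 132.3, above every other promoter in each library, and Sp1 had rank 4 at 112.8, 114.8, 115.6 and 105.7. Gsk3b, a kinase that restrains Wnt signalling, was at 131.0, 128.1, 125.5 and 125.1. The small GTPase genes Rap2a and Rap2b were at 123.9 ± 5.9 and 100.8 ± 5.6 (SD, n = 4). Srgap2, a regulator of neuronal migration, was at 108.9 ± 4.2 and Fam72a at 104.3 ± 3.0. These neighbours are transcribed away from each other, so their windows can hold the same reads. The centrosomal protein genes Cep170, at 103.5 ± 4.4, and Sdccag8, at 97.8 ± 3.3, are also neighbours, and whether their windows share reads is not known. Further members were Khsrp, which encodes an RNA-binding regulator of splicing and decay, at 109.2 ± 3.3, and Usp5, a deubiquitinase gene, at 101.4 ± 2.4. Jun, the AP-1 subunit, was at 96.7 ± 2.5. The coefficient of variation of the 20 promoters over the 4 libraries was 1.13% to 6.36%. Neighbours in this order mostly differed by less than the spread between libraries, and 18 to 20 of the 20 remained among the 20 highest in single libraries, without any 1 library, by the median and with TMM factors. The other promoters of the 20 were those of Dhrsx, Ppp2r3d, Camta1, Zswim6, Gpr108, Mex3c, Leprot and Dipk2a.

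**Figure D2:**
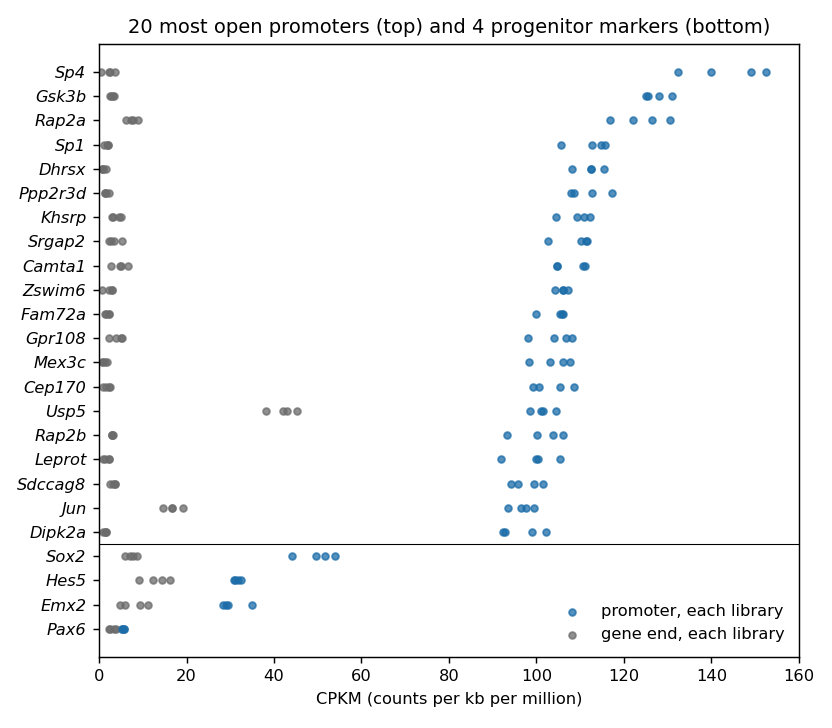
Promoter and gene-end levels of the 20 most open promoters, in order of rank, and of the 4 progenitor markers under the line. Each point is 1 of the 4 libraries and the x axis is CPKM. The 20 promoters lie at 92.0 or above in every library, Usp5 has the highest gene end among them at a mean of 42.1, and Pax6 lies near its own gene end.

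Genes used by nearly all dividing cells had open promoters. All 24 cell cycle and DNA replication genes lay above the boundary, with a median of 24.8. They ranged from 5.98 at Ccnd3, which encodes a D-type cyclin, to 51.2 at Mcm4, a subunit of the replicative helicase. Of 20 general housekeeping genes, 19 lay above the boundary, with a median of 24.3 and the highest level at Hnrnpa1, an RNA-binding protein gene, at 69.3. The exception was Ywhaz, a 14-3-3 protein gene, at 1.52, 0.911, 2.50 and 1.73. Whether the counted window of Ywhaz covers the start used in these cells was not tested. All 15 immediate early genes, which respond to stimulation within minutes, lay above the boundary and 8 were in the most open 10%, with a median of 39.2. Egr1 was at 59.3, Myc at 50.8 and Fos at 39.8. Of 62 replication-dependent histone genes, 60 lay above the boundary and 28 in the most open 10%, with a median of 33.7. These genes stand in clusters, and their gene ends had a median of 9.21 against 2.21 for all genes. Cytosolic ribosomal protein genes had 75 of 80 promoters above the boundary with a median of 16.5, proteasome subunit genes 36 of 39 with 14.8, and translation initiation factor genes 50 of 53 with 22.7.

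Genes of later or neighbouring neural cell types had medians below that of all promoters. Of 23 genes of neurogenesis and neurons, 16 were above the boundary (69.6%, against 65.0% of all promoters), with a median of 9.26 against 10.8 and none in the most open 10%. The highest were the neuronal genes Syt1, Map2 and Elavl4, at 30.9, 26.0 and 24.6. Neurog2, the proneural factor of cortical progenitors, was at 11.9 and Eomes, a marker of intermediate progenitors, at 11.7. Neurod2, a factor of cortical projection neurons, was at 2.98. Of 16 genes of the ventral telencephalon and interneurons, 14 were above the boundary with a median of 8.49. The homeobox genes Dlx6, Dlx2 and Dlx1 were at 12.1, 12.1 and 11.9. Of 14 astrocyte and oligodendrocyte genes, 8 were above the boundary. Olig2, a factor of the oligodendrocyte lineage, was at 50.9, 53.8, 53.0 and 50.3 and Olig1 at 33.7 ± 1.7 (SD, n = 4), while the water channel gene Aqp4 was at 1.23.

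Markers of cells from outside the neural lineage differed by list. Of 13 microglia and leukocyte genes, 1 was above the boundary, P2ry12 at 8.95, and the median was 2.30. The defining leukocyte gene Ptprc was at 1.45. Of 12 endothelial genes 5 were above the boundary, with a median of 4.48, Flt1 highest at 13.3 and Pecam1 lowest at 1.52. Of 10 erythroid genes 3 were above it, with Hbb-bs, a beta-globin gene, lowest at 1.93. Of 12 mesenchymal and meningeal genes 9 were above it with a median of 6.62, and Foxc1, Tbx18 and Prrx1 were at 21.0, 21.0 and 20.2. Their part in the other levels was not tested, and in a bulk culture a small share of other cells and a low level in all cells cannot be told apart. Of 18 genes of liver, muscle, heart, pancreas and epidermis, 1 was above the boundary, Myod1 at 5.76. Of 13 pluripotency and germline genes, 1 was above it, the germ cell RNA-binding protein gene Dazl at 20.0, 22.5, 21.7 and 17.5. The next highest of these, Nanog, was at 2.93.

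Many of the least open promoters belonged to large clustered families of chemosensory genes. Olfactory and vomeronasal receptor genes made up 883 of the 1926 promoters of the least open 10% (45.8%) but 7.54% of all autosomal promoters. Of 1103 olfactory receptor genes, 7 lay above the boundary and 602 in the least open 10%, with a median of 1.73. Of 228 vomeronasal type 1 receptor genes, 0 lay above the boundary and 187 in the least open 10%, and of 121 type 2 receptor genes 2 and 94. The lowest promoter of all was that of Vmn2r129, with 4, 1, 1 and 6 counts. These families have many near-identical copies, and reads that map to several places may have been left out of or split in the counts, so their levels are uncertain. The promoter windows of olfactory and vomeronasal type 1 receptor genes were also often short. Of 1310 windows below 2001 bp, 821 were of the olfactory and 193 of the type 1 receptor genes. The type 2 receptor genes had 0 such windows, and the level per kb allows for window length. Membership of the least open 10% was less exact, since 1399 to 1452 of the 1926 remained in it in single libraries and 1715 to 1737 without any 1 library. Bitter taste receptor genes had 0 of 35 promoters above the boundary, defensin genes 0 of 70 and keratin genes 0 of 53. Chromosome 7, where 21.5% of promoters belong to olfactory and vomeronasal receptor genes, had the lowest median promoter level, 5.03, and chromosome 12, with 0 such genes, the highest, 14.5. The medians in between did not follow this share strictly. Chromosome 2, with 16.9%, was at 9.21 and chromosome 6, with 8.23%, was lower at 8.72.

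HOX genes, which pattern the body axis behind the forebrain, were low as well, with 2 of 39 promoters above the boundary and a median of 2.97. The lowest was Hoxb2 at 1.19. Of 58 clustered protocadherin genes, which give neurons individual surface identities, 6 were above the boundary with a median of 2.05, and Pcdhgc3 was highest at 23.6. The 384 zinc finger genes with Zfp symbols behaved otherwise, with 336 above the boundary and a median of 15.4.

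**Figure D3:**
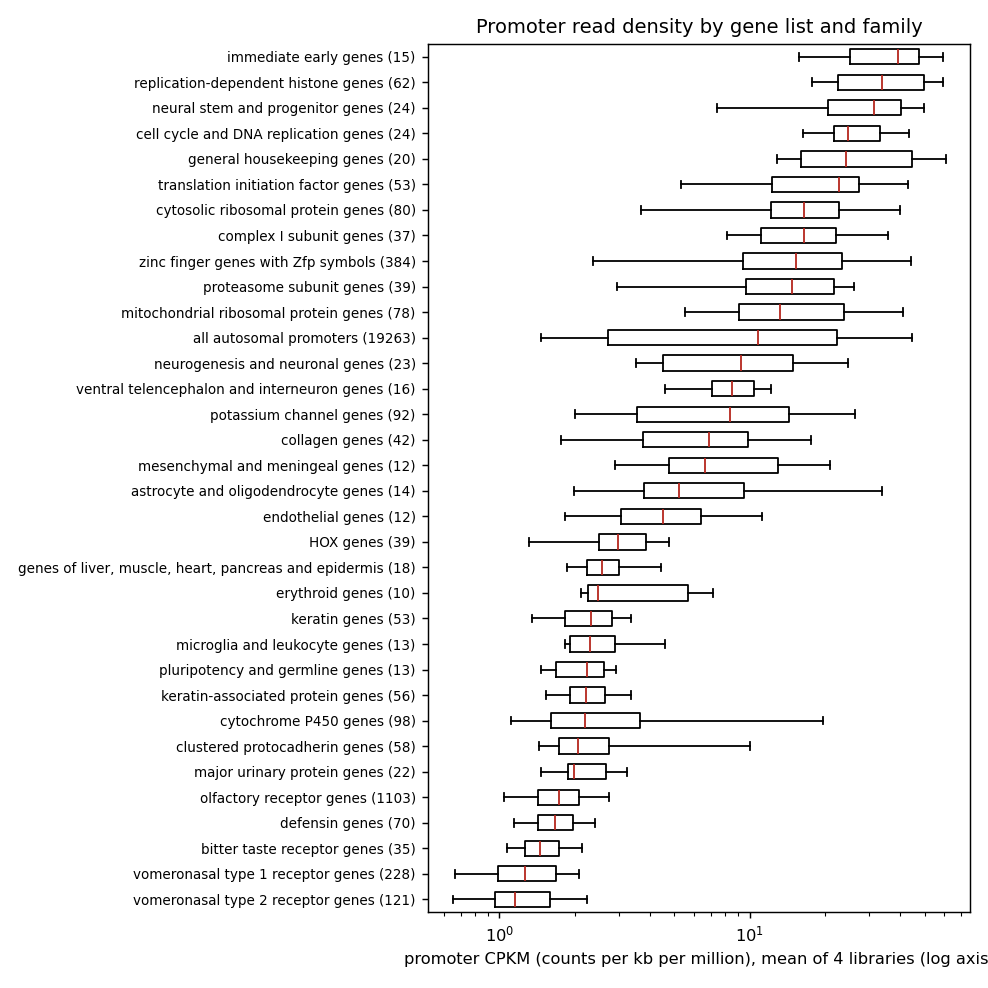
Promoter levels of 13 gene lists, 20 gene families and all autosomal promoters, ordered by median, with the number of genes in brackets. The x axis is CPKM, mean of 4 libraries, on a log scale. Boxes show quartiles, red lines medians and whiskers the 5th and 95th percentiles. Immediate early, histone and progenitor genes lie highest and chemosensory receptor genes lowest.

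Most genes were more open at the promoter than at the gene end. Of 19203 genes tested, 13361 were higher at the promoter (69.6%) and 1025 higher at the gene end (5.34%), by edgeR's quasi-likelihood test with the library as a block at a Benjamini-Hochberg adjusted p under 0.05. The other 4817 (25.1%) were not called, and both their windows were low, with medians of 2.08 at the promoter and 1.99 at the gene end. The median log2 ratio of promoter to gene end was 1.95 over all genes tested, 2.76 among those higher at the promoter and -1.04 among those higher at the gene end. A test against a 2-fold difference called 11304 (58.9%) and 408 (2.12%). The promoter was above the gene end in all 4 libraries for 12949 genes, and the reverse held for 833. These counts rest on scaling both windows by the same library total. With TMM factors, which centre the ratios of all genes near 0 and shift the median by -2.01 on the log2 scale, 7718 genes were called higher at the promoter and 8060 higher at the gene end, so the split is relative to the scaling. Across genes the promoter level and the gene-end level had a Spearman correlation of 0.249 over 19263 genes of the same 4 libraries, given as a description.

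Nearly every open promoter was above its own gene end. In the most open 10% 1914 of 1927 genes were higher at the promoter and 7 higher at the gene end. In the least open 10% 117 of 1926 were higher at the promoter and 213 higher at the gene end. These groups were cut by promoter level, which also enters the ratio, so the contrast between them follows largely from the cut. All 24 cell cycle genes and 23 of 24 progenitor genes were higher at the promoter, against 69.6% of all genes tested, and so were 2 of 13 microglia and leukocyte genes and 2 of 18 genes of other organs. Among genes with at least 10 counts at the gene end in the mean library, the 10 largest ratios were at Gsk3b, Rbm15, Rap2b, Dcaf6, Evi5l, Srgap2, Kat6b, Hdac4, Dnpep and Sdccag8, from 42.3-fold down to 29.4-fold. Kat6b is the gene that the wider study removed or raised. Its promoter was at 79.4, 91.5, 82.9 and 76.3 and ranked 57, and its gene end was at 2.57, 1.82, 3.05 and 3.02, with no overlap. The log2 ratio was 4.96 ± 0.13 (SE, edgeR adjusted p = 6.0e-96). As the 10 genes were picked by this ratio, the p-value and the lack of overlap add no support. Hdac4, a histone deacetylase gene, had a promoter level of 79.1 ± 5.1 (SD, n = 4) and a log2 ratio of 4.91. Among the markers, the log2 ratio was 2.76 for Sox2, 1.92 for Emx2, 1.27 for Hes5 and 0.86 for Pax6, the last with an SE of 0.24 (edgeR adjusted p = 5.1e-04). Under TMM factors the ratios of Hes5 and Pax6 fell below 0, to -0.75 and -1.16, that of Emx2 was -0.08 and that of Usp5 -0.75, while Sox2 stayed above 0.

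**Figure D4:**
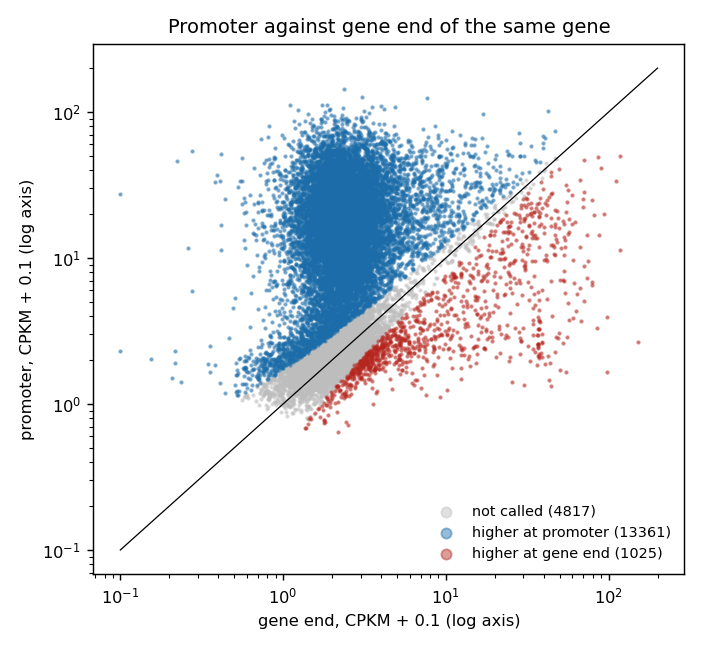
Promoter level against gene-end level of each tested autosomal gene, mean of 4 libraries, both in CPKM with 0.1 added on log axes. Blue points are genes higher at the promoter (13361), red points genes higher at the gene end (1025) and grey points genes not called (4817), and the line marks equal levels. Most open promoters stand over gene ends near 2, and the red points form an arm of gene ends at up to 150.6.

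A small set of genes had an open gene end and a closed promoter. The 15 lowest ratios, among genes with at least 20 counts at the gene end in the mean library, had promoters of 1.23 to 3.85 and gene ends of 30.2 to 150.6. Slc25a41, a mitochondrial carrier gene, had its promoter at 2.22, 2.34, 2.92 and 2.70 and its gene end at 151.8, 149.4, 158.4 and 142.9, the most open gene end of all. Xcr1, a chemokine receptor gene, had its promoter at 1.64, 1.56, 1.25 and 1.73 and its gene end at 100.1, 96.8, 100.4 and 91.4, a log2 ratio of -5.94 ± 0.12 (SE, edgeR adjusted p = 1.4e-119). In both genes the 2 windows did not overlap in any library. The 15 genes were picked by this ratio, so the p-value and the lack of overlap add no support. Slc25a41 is the upstream neighbour of Khsrp, whose promoter was at 109.2 ± 3.3 (SD, n = 4). The orientation of Slc25a41 was not known, so whether its gene end lies beside that promoter was not tested. Agrp, a hypothalamic appetite peptide gene, had its promoter at 1.57 ± 0.28 and its gene end at 54.9 ± 3.9 (SD, n = 4). The others were Nt5c1b, Fam71e2, Tsga13, Tmem253, Tmem139, Cpb2, Fhl3, Hormad1, AB124611, Duox1, Tmc4 and Pcdhga9.

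Many of the most open gene ends came before another gene on the same strand in gene order. Distances to the next start were not measured. RefSeq gave the orientation of the next gene downstream for 11 of the 15. In 8 it lay on the same strand, and all 8 of these next genes had a promoter above the boundary, as 58.8% of all 6720 next genes on the same strand did, for example Casp2 after Tmem139 at 50.4 and Copg2 after Tsga13 at 27.1. Of the 10 most open gene ends, 8 had a next gene of known orientation and 7 of these a next gene on the same strand. All 7 of those promoters were above the boundary, beside the same 58.8%. Examples were Tomm40 after Nectin2 at 76.9, Cactin after Pip5k1c at 67.1 and Abtb1 after Podxl2 at 64.9. Xcr1 was different, since the next gene, Cxcr6, is convergent and had a promoter level of 1.98. Over all 13014 genes with a known orientation the next gene lay on the same strand in 51.6%. The share was 48.1% among genes higher at the promoter, 59.0% among genes not called, 65.4% among genes higher at the gene end and 72.3% among the 260 of them past the 2-fold test. Among genes with a same-strand next gene, that gene's promoter was above the boundary in 71.2% of those higher at the promoter. It was in 29.1% of those not called, 68.7% of those higher at the gene end and 85.6% of the latter past the 2-fold test. A gene end above 2 times the gene-end median was seen in 11.1% of genes whose next gene was on the same strand and in 9.01% of those with a convergent next gene. The order was the other way where the next gene's promoter was in the most open 10%, with 12.2% and 12.55%, and where it was below the boundary, with 4.55% and 6.13%.

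Among genes of the fixed lists, some open gene ends belonged to genes with an open promoter as well. Eef2, the translation elongation factor, had a promoter of 14.97 ± 2.6 and a gene end of 56.7, a log2 ratio of -1.90. Junb, an AP-1 subunit gene, had 27.9 ± 1.7 and 44.7. Nr2f2, the progenitor gene with a low promoter window, had a gene end of 16.4 and a log2 ratio of -2.04. Neurod6, a factor of cortical neurons, had 3.51 and 13.4. Eif4e1b, a translation factor gene of oocytes, had 1.99 ± 0.68 and 38.9. Among clustered protocadherin genes, 22 of 58 were higher at the gene end, against 5.34% of all genes tested. All 22 were genes of the gamma cluster, where the genes share their last exons, and none of the 14 alpha or 22 beta genes was. The gamma gene ends were at 10.3 to 37.1, while their promoters had a median of 2.67, so the 22 calls largely repeat 1 stretch of DNA. The same held for the 9 Ugt1a genes, which share their last exons as well and were all higher at the gene end. Of the 1025 genes higher at the gene end, 37 had exactly the counts of another gene there in all 4 libraries, at a mean count of at least 20. The low call at Ywhaz, with a log2 ratio of -0.73, was lost without library 2 (edgeR adjusted p = 0.0661) or library 4 (edgeR adjusted p = 0.130) and with DESeq2 (adjusted p = 0.141).

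Promoters that face away from a neighbouring gene were more open. The median promoter level was 14.5 for the 6496 genes whose upstream neighbour is on the opposite strand and points away, and 8.40 for the 6720 genes with an upstream neighbour on the same strand. In the first group 13.7% lay in the most open 10% and in the second 7.93%. When the starts of such a pair are close, both windows can count the same reads.

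Enhancer regions formed a single broad distribution. Over the 14671 regions of at least 500 bp the median was 7.26, with 5th and 95th percentiles of 2.50 and 26.0. Of these regions 73.9% were above 2 times the gene-end median, 31.6% were above the promoter median, and 273 (1.86%) reached the level of the most open 10% of promoters. The median was higher in longer regions, from 6.70 in regions of 500 to under 1500 bp to 8.72 in regions of 2500 bp or more. Regions under 100 bp, which held a median of 1.75 counts, had a median of 9.52, and a read that only touches so short a region may be counted in full, so these levels are not comparable with the others. By chromosome the median of all regions ran from 5.27 on chromosome 19 to 7.29 on chromosome 3.

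A few enhancer regions held a large share of the reads. The 4 with the most counts took 12.1% to 13.0% of the enhancer counts in each library. They start at base 98504851 of chromosome 2, 39982828 of chromosome 17, 3110474 of chromosome 12 and 35112944 of chromosome 9, in the mm9 coordinates of the deposited names. The region on chromosome 2, of 6154 bp, was at 4136, 4151, 4572 and 4601 CPKM, far above the highest promoter in every library. The region on chromosome 12 was at 2273 ± 107 and that on chromosome 9 at 1645 ± 140 (SD, n = 4). The region on chromosome 17 was at 1513 ± 60. Among the 10 highest, 4 were 2 to 10 bp long, and the region of 2089 bp that starts at base 108873179 of chromosome 11 was at 226.9 ± 7.5. Medians of a class do not depend on these regions, but the library total does. Whether reads that map to several places, or repeated DNA, add to these levels was not tested. The levels are therefore not read as the openness of single enhancers.

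Openness of promoters went with CpG content. RefSeq windows from 250 bases before to 50 after the start were found for 15332 of 18781 autosomal promoters off chromosome 18 (81.6%). With promoters cut into 10 equal groups by level, in groups 3, 4 and 5 fewer than 80% had one (79.2%, 73.5% and 79.6%), so the order there is not read. The median ratio of observed to expected CpG was 0.134 in the least open 10% and 0.839 in the most open 10%, and the median GC content was 38.7% and 65.0%. Windows with a ratio over 0.6 had a median promoter level of 20.1, and 95.4% lay above the boundary. Windows at or under it had a median of 2.67, and 33.1% lay above. The same split showed in the comparison with gene ends, with 94.0% of the first and 43.5% of the second higher at the promoter. Sp4 and Rap2a, printed above, have ratios of 0.912 and 1.08, and Alb has 0.272. Pax6 has 0.698 and yet lies near the boundary.

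Of 5 short promoter motifs, the GC box followed the CpG pattern, the TATA box ran the opposite way and the other 3 had their highest or lowest share in between. They were searched on both strands of the same windows and overlap with the CpG count where they hold CG. No allowance was made for base composition, and median GC content was 38.7% in the least open and 65.0% in the most open 10%. Whether the shares of AT-rich or GC-rich motifs differ beyond base composition was not tested. The GC box GGGCGG, a binding sequence of SP1 and SP4, was in 3.44% of the least open 10%, 79.6% of the most open 10% and 49.4% of all windows. The TATA box TATAAA was in 36.6%, 5.67% and 13.0%. The CCAAT box was in 43.1%, 53.9% and 38.7%, with its lowest share of 30.2% in group 6 of 10. The ETS-family motif CCGGAAG was in 1.25%, 16.5% and 12.6%, highest at 20.4% in group 6 of 10. The palindromic NRF1 motif was in 0.188%, 1.93% and 1.43%. Over the genes with a single RefSeq window, the share with GGGCGG was 3.20% in the least open and 81.0% in the most open 10%.

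**Figure D5:**
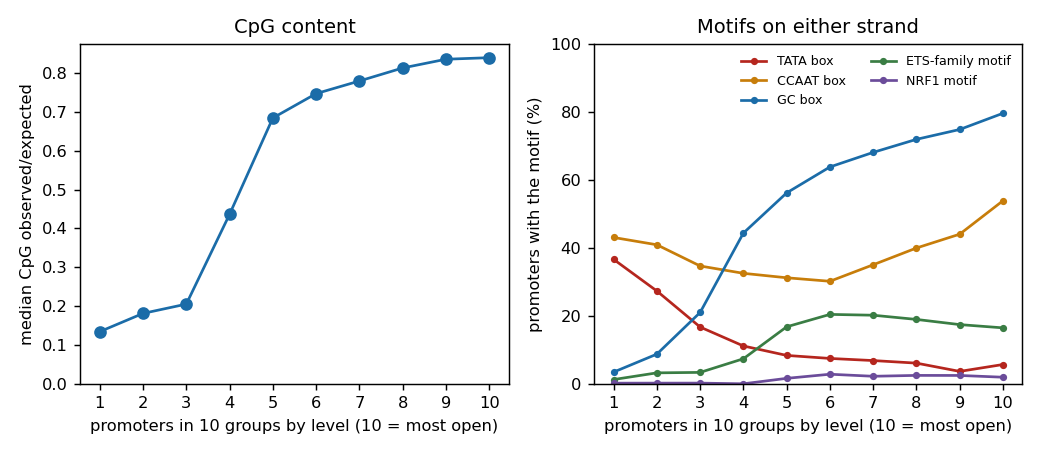
Sequence of RefSeq promoter windows in 10 equal groups of promoters by level, with group 10 the most open. The left panel shows the median ratio of observed to expected CpG and the right panel the percentage of promoters with each of 5 motifs on either strand. The CpG ratio goes from 0.134 to 0.839 and the GC box from 3.44% to 79.6%, while the TATA box goes from 36.6% to 5.67%.

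Some promoters went against this pattern. With a CpG ratio over 0.6, 365 promoters lay below the boundary. Ncoa1, a nuclear receptor coactivator gene, had 49 CpG in its window and a level of 1.29 ± 0.37, and Hoxb8 had 13 CpG and 1.28 ± 0.27 (SD, n = 4). With a ratio of 0.6 or less, 184 promoters lay in the most open 10%, led by Ppp2r3d at 111.6 ± 4.3, Fam72a at 104.3 ± 3.0 and Jun at 96.7 ± 2.5. Ppp2r3d had a ratio of 0.555 and 6 CpG, and Jun a ratio of 0.594 and 15 CpG. The window counted by the authors may start elsewhere than the RefSeq window in these genes.

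The 4 embryos differed little at open promoters. Over 11879 promoters with at least 50 counts in the mean library the median coefficient of variation was 7.68%, and it passed 20% in 182. The biological coefficient of variation estimated by edgeR was 0.035 for promoters, 0.040 for enhancer regions and 0.048 for gene ends. The most variable of these promoters, up to 32.9%, were those of Cybc1, Yjefn3, Hapln1, Terb1, Gtf2f2, Gpr83, Cpeb1, Dydc2, Htr4 and Ptprb. They are the extremes of 11879 promoters, and most lay near the minimum of 50 counts. Terb1, for example, had 43, 42, 65 and 52 counts. How much of their spread is counting noise was not tested, so they are not read as differences between embryos. Gtf2f2, a general transcription factor gene, had 94, 89, 65 and 161 counts, highest in library 4. Ptprb, a receptor phosphatase gene of vessels, had 118, 59, 67 and 77, highest in library 1. Hapln1, a matrix link protein gene, had 38, 44, 66 and 59. By CPKM, library 3 was the highest at Yjefn3, Hapln1, Terb1, Gpr83, Cpeb1 and Htr4. Library 4 was the highest at Cybc1 and Gtf2f2, and library 1 at Dydc2 and Ptprb.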

How the data were processed

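ATAC-seq libraries of 4 wild-type C57BL/6 cultures were used. The authors deposited raw counts per region, made with featureCounts on mm39 per the submitters' processing notes. The aligner, read filters and treatment of multiply mapped reads are not stated in any source read for this work. The region length stands beside the counts in the deposited tables. Gene symbols, chromosomes and gene order came from RefSeq GRCm38.p6, which matched 20091 of 20113 gene IDs.

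Levels are counts divided by length and by the library's autosomal total over the 3 classes, and intervals of single counts were not made. Promoter and gene-end counts of a gene were compared with edgeR 4.0.16 (quasi-likelihood, offsets for length and total, library as a block, since both windows come from 1 library) in genes with a mean count of at least 10 over both windows together, with Benjamini-Hochberg adjustment. The test was checked on simulated data with known changes. Class ratios used an exact permutation test. limma 3.58.1, DESeq2 1.42.0, Python 3.11.15 and R 4.3.3 served the alternatives and summaries. Named genes were the 4 markers, the 20 most open promoters, the extreme ratios in both directions above a count minimum, the 10 highest gene ends and enhancer regions, the 10 most variable promoters, members of the lists, and 2 per family. List members that are not named enter the counts, and some results for single genes are not reported here. The members, lists and tests were chosen with earlier results of these data known. Ncoa1, Hoxb8 and the other exceptions were chosen after their values were seen.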

Additional observations from a re-analysis of the deposited data

Results flagged for a closer look

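In 8 of 135 sets of 4 values examined, 1 library stood apart from the other 3 by more than Dixon's 95% critical value. Chance flags about 1 in 20 such sets. The promoters of Srgap2 and Fam72a, which can share reads, were lowest in library 4, at 102.7 and 99.9 CPKM. Hdac4 was highest in library 4, at 86.8. Gpr83 and Terb1 were highest in library 3, at 10.5 and 9.02. The gene end of Fam71e2 was highest in library 1, at 46.3. The median promoter level of the mesenchymal and meningeal genes was highest in library 3, at 7.57, and that of the clustered protocadherin genes lowest in library 3, at 1.94.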

How the results depend on the processing

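The counts of genes higher at the promoter and at the gene end were 13306 and 994 with no replicate block and 13364 and 1025 without a filter on low counts. With limma-voom they were 13128 and 1038. With windows lengthened by 150 bp, an alternative added after seeing the data, they were 13708 and 897. Leaving out 1 library at a time gave 13069 to 13171 and 917 to 960. TMM factors gave 7718 and 8060, since they centre the ratios by construction. With at least 20 counts required in each window, which left 1582 genes to test, they were 873 and 539. DESeq2 called 681 genes higher at the gene end and the 2-fold test 408. The cause of the lower DESeq2 count was not tested. Under TMM factors the log2 ratios of Hes5, Pax6, Usp5 and Jund turned to -0.75, -1.16, -0.75 and -1.62. With no pairing of the windows within a library, the class ratios of 2.29, 1.56 and 0.73 had an exact permutation p = 0.0286. Gene ends, with a median of 8 to 11 counts, limit the precision of single ratios.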
